A study of Mus musculus with 3 samples.

Results

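The HoxA genes are the homeobox genes of the Hox cluster on mouse chromosome 6. They were taken as every gene of the count tables whose symbol is Hoxa followed by a number, which gave 9 of 16181 genes: Hoxa2, Hoxa3, Hoxa4, Hoxa5, Hoxa6, Hoxa7, Hoxa9, Hoxa10 and Hoxa11. Of these, 8 had at least 20 UMIs (unique molecular identifiers, each counting 1 captured transcript) over all filtered cells. The exception was Hoxa4, with 8. Hoxa13, at the tail end of the cluster, was not analysed here. Cerebella of 3 EedcKO mice at P7 (genotype Math1-Cre/Eed fl/fl, untreated) were each profiled by Drop-seq, a droplet method that captures the 3′ ends of transcripts cell by cell. Cre is expressed from the Atoh1 (Math1) promoter, so Eed was deleted in the granule neuron lineage, and cells of other lineages in the same cerebella should have kept it. Each mouse gave 1 library, from 1 side of its cerebellum. WT mice were not analysed here, so all comparisons are between cells of the same mice and none between genotypes.

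Hox genes encode transcription factors that give segments of the body axis their identity. The genes of a cluster lie in the order in which they are used along the body, from low numbers at the head end to high numbers at the tail end. The cerebellum arises from the first segment of the hindbrain, in front of the limit of Hox expression, and Hox clusters are held silent there. PRC2, of which EED is a core subunit, places the repressive mark H3K27me3 on Hox clusters in tissues that do not use them. Hoxa2 and Hoxa3 act in the hindbrain and the pharyngeal arches, Hoxa5 in the neck and lung, and Hoxa7 in the trunk. Hoxa9, Hoxa10 and Hoxa11 act in the lumbar and sacral body, the limb and the urogenital tract.

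On the mouse genome build GRCm38 (GENCODE M21), all members lie on the minus strand, with Hoxa2 at chr6:52162417-52164831, Hoxa5 at chr6:52201754-52204587, Hoxa7 at chr6:52214491-52221854, Hoxa9 at chr6:52223100-52231089 and Hoxa10 at chr6:52231197-52240854. Hoxa3, at chr6:52169062-52213336, spans Hoxa4, Hoxa5 and Hoxa6, and 482 of its exonic bases are shared with Gm28308 on the same strand. Exons of Hoxa7 overlap 586 bases of the antisense gene Hoxaas3, and those of Hoxa11 overlap 800 bases of Hoxa11os. Sequences before the starts of members were taken from RefSeq (GRCm38.p6), which held them for 8 of the 9 members. For 3 of the 4 members that could be tested below, the 250 bases before the start lay outside annotated exons. The RefSeq starts used for Hoxa9, for Hoxa7 and for the inner Hoxa10 window lie inside the genes as GENCODE gives them, so these windows do not lie before the outermost start. The windows are shown because PRC2 favours unmethylated stretches rich in CpG. They are written 5′ to 3′ in the direction of transcription, with CpG dinucleotides in capitals.
Hoxa5, chr6:52204588-52204837, minus strand: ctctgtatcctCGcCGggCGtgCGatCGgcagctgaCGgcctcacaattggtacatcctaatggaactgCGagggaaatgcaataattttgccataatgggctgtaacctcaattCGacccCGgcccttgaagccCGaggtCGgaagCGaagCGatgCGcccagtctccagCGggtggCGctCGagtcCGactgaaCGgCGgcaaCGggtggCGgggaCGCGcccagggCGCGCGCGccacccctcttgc
Hoxa9, start inside the gene, chr6:52227371-52227620, minus strand: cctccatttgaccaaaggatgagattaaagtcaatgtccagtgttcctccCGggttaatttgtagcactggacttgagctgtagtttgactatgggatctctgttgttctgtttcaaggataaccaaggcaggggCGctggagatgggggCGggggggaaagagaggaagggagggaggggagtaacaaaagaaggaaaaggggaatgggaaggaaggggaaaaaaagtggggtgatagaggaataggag
Hoxa10, outer start, chr6:52240855-52241104, minus strand: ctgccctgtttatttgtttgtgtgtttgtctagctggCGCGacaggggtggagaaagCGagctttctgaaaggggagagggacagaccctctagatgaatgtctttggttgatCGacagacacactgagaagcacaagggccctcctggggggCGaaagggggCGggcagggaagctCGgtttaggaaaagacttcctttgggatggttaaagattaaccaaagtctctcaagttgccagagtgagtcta
Hoxa10, inner start, chr6:52234940-52235189, minus strand: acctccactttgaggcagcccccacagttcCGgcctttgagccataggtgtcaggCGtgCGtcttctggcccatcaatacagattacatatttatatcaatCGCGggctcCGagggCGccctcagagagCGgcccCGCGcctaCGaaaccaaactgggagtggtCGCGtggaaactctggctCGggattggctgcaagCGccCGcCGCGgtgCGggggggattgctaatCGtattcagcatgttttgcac

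The windows were not alike. The Hoxa5 window held 28 CpGs, a number reached by 7.61% of 32851 mouse promoter windows of the same length, and the inner Hoxa10 window held 20, reached by 17.9%. The Hoxa9 window held 3 and the outer Hoxa10 window 7, against a median of 6 over all windows. The Hoxa7 window, not shown because 78 of its bases are exonic, also held 7. The letters TATAAA, searched on both strands, occurred in the inner Hoxa10 window and in none of the other windows of Hoxa5, Hoxa7, Hoxa9 and Hoxa10, and were found in 12.4% of all windows. CCAAT occurred in the Hoxa5 and inner Hoxa10 windows and in 33.8% of all windows. TGATNNAT, a form of the joint HOX and PBX motif, occurred in none of these 5 windows and in 7.68% of all windows.

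The 3 libraries held 3693051 UMIs in 3481 barcodes, and 2373 cells with 3081202 UMIs passed the filters (918, 547 and 908 in mice 1, 2 and 3, with medians of 919.5, 857 and 1408 UMIs per cell). No barcode was shared between mice. Clustering without the Hox genes gave 14 clusters, which were called X-like where their markers allowed a name. CGNP/CGN-like cells (cerebellar granule neuron progenitors and neurons, 1172 cells) comprised 650 proliferating cells, in a mitotic cluster with Mki67 and another with Atoh1 and Sfrp1, whose top gene by fold was the haemoglobin gene Hbb-bs, and 522 differentiating cells, in an earlier cluster with Barhl1 and a later one with the highest Cntn2. Cells outside the Atoh1 lineage (752 cells) were named as interneurons, oligodendrocytes, astrocytes, endothelial cells, myeloid cells, vascular fibroblasts or pericytes. The remaining clusters were 82 myoid-like cells, 190 unnamed cells with 5 markers each of interneuron progenitors and of proliferating CGNPs, and 177 unnamed cells led by Syt4, of which 124 came from mouse 3. The Eed transcript stood at 22.4 ± 8.17 CPM (UMIs of a gene per 1000000 UMIs of its cell group) in CGNP/CGN-like cells. It stood at 60.5 ± 20.2 CPM in cells of the other lineages (mean ± SD, n = 3 mice), a log2 difference of -1.27 (edgeR, adjusted p = 0.032). Whether its counted 3′ ends lie in the deleted exons is not given in the sources used here, so this does not measure how many cells lost the gene. The mice stood for the replicates throughout, and intervals on counts and shares cover counting error only.

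HoxA transcripts were concentrated in differentiating CGNP/CGN-like cells. Summed over the 9 members, the later differentiating cluster held 1556, 1564 and 1702 CPM in mice 1, 2 and 3. The earlier differentiating cluster held 828, 1148 and 1004, and the unnamed Syt4 cluster 754, 801 and 765. These 3 clusters did not overlap with each other in any mouse, nor with the clusters that followed. The proliferating cells held 185, 251 and 166 CPM, and both of their clusters had overlapping values, with means of 210 ± 20.6 (Sfrp1) and 196 ± 68.0 (Mki67).

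Below them, neighbouring clusters could not be separated beyond their spread. Pericyte-like cells had a mean of 149 ± 132, from 6 UMIs in 30 cells, oligodendrocyte-like cells 121 ± 102, myoid-like cells 93.9 ± 14.5 and myeloid-like cells 68.4 ± 59.5. The unnamed cluster of 190 cells had 44.2 ± 40, interneuron-like cells 42.3 ± 31.4 and vascular fibroblast-like cells 36.9 ± 37.0. Endothelial-like cells had 23.9 ± 21.3 and astrocyte-like cells 21.4 ± 22.6. In the oligodendrocyte-like cells 6 of the 15 UMIs came from 1 cell of mouse 2. All cells outside the lineage together held 44.0, 83.7 and 48.6 CPM, from 47 UMIs.

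**Figure D1:**
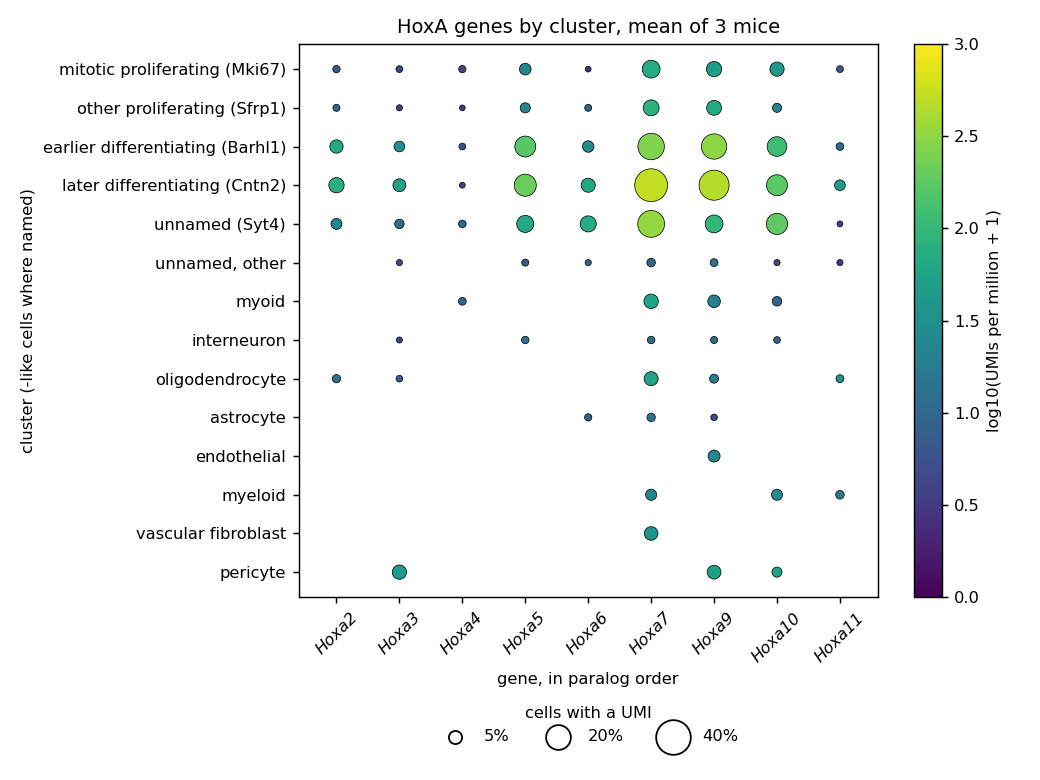
Level and share of positive cells for the 9 HoxA genes (columns, in paralog order) in 14 clusters (rows). Colour gives log10 of CPM plus 1 and dot size the share of cells with a UMI, both as the mean of 3 mice, and no dot means that no UMI was counted. The largest and brightest dots are those of Hoxa7 and Hoxa9 in the later differentiating cluster, where 35.9% and 29.8% of cells were positive.

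The share of cells with a HoxA UMI was also higher in differentiating than in proliferating cells, and higher in these than outside the lineage. It was 36.3% ± 7.11 of CGNP/CGN-like cells (29.8%, 35.3% and 43.9% in mice 1, 2 and 3). It was 56.3% ± 5.65 of differentiating cells and 19.6% ± 3.98 of proliferating cells. Outside the lineage, 5.05% ± 1.45 of cells were positive, at a median depth of 953.5 UMIs against 1026.5 in CGNP/CGN-like cells. Differentiating cells were shallower than proliferating ones, with medians of 893 and 1160 UMIs. With every cell thinned to 500 UMIs, the shares were 42.6% ± 3.95 in differentiating, 7.98% ± 2.49 in proliferating and 2.35% ± 1.26 in cells outside the lineage. Within these groups the shares did not follow the levels in every mouse. In mouse 2, 59.6% of the earlier and 52.6% of the later differentiating cells were positive. The Mki67 cluster, at a median of 1515.5 UMIs per cell, was positive in 22.8% ± 5.99, and the Sfrp1 cluster, at 993 UMIs, in 17.6% ± 3.62. After thinning the shares were 6.97% ± 3.73 and 8.70% ± 1.90, so no order was read from them. Mouse 3, the deepest library, had the highest share over all CGNP/CGN-like cells before thinning.

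Along the cluster, levels peaked at Hoxa7 and Hoxa9. Since only 3′ ends were counted, each captured transcript gives 1 UMI whatever its length, so levels were compared without scaling for length. How well transcripts of each gene were captured and assigned was not measured, and it may differ between genes. In differentiating cells, 31.7% (28.4 to 35.1, exact 95% binomial interval) of the 789 HoxA UMIs were from Hoxa7 and 29.4% (26.2 to 32.7) from Hoxa9. In these pooled UMIs the neighbours did not differ beyond counting error. By mouse, Hoxa7 and Hoxa9 gave 85 and 56 of 243 UMIs, 54 and 56 of 180, and 111 and 120 of 366. Only in mouse 1 did the intervals not overlap (29.0 to 41.3 against 17.9 to 28.9). Hoxa5, on the head side, gave 14.1% (11.7 to 16.7) and Hoxa10, on the tail side, 11.4% (9.27 to 13.8). The other members gave less. Hoxa2 had 5.07%, Hoxa6 3.42%, Hoxa3 2.79%, Hoxa11 1.90% and Hoxa4 0.253%. The profile was therefore no steady gradient from either end. Hoxa6, which lies between Hoxa5 and Hoxa7, had a level of 48.6 ± 6.09 CPM, against 192 ± 24.5 and 441 ± 17.1 for those flanking genes, and its 3 mice (42.5, 54.6 and 48.8) overlapped with neither.

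**Figure D2:**
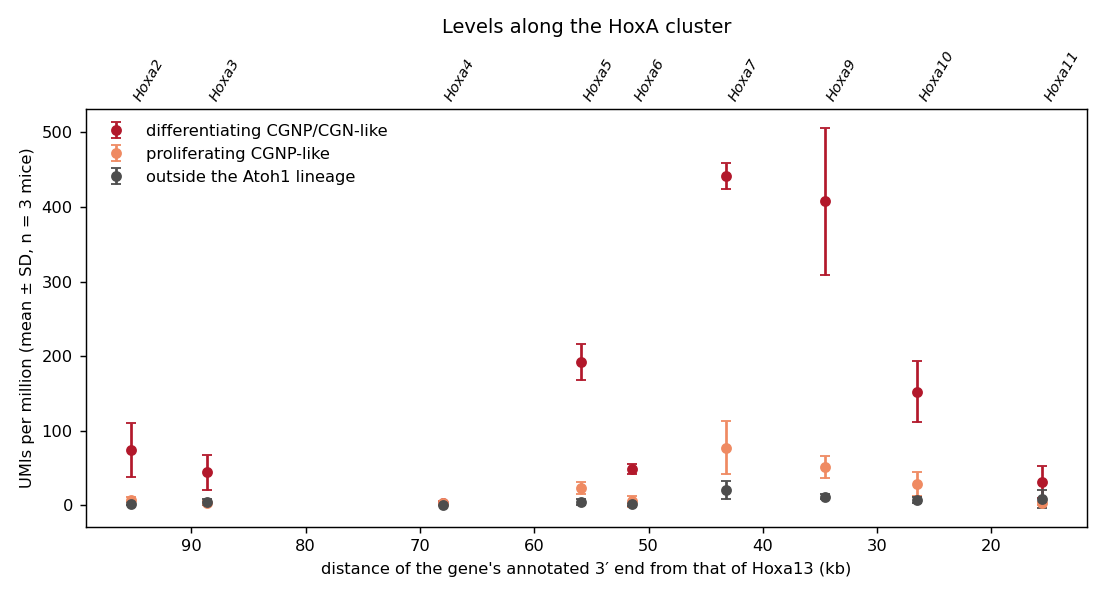
Levels along the HoxA cluster, as CPM (mean ± SD over 3 mice), against the distance of each gene's annotated 3′ end from that of Hoxa13 in kb. Differentiating CGNP/CGN-like cells (dark red) peak at Hoxa7 (441) and Hoxa9 (407), proliferating cells (orange) at Hoxa7 (77.3) and Hoxa9 (51.5), and cells outside the lineage (grey) stay at or below 20.7.

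The proliferating cells showed a like make-up at a lower level. Of their 180 HoxA UMIs, 37.2% (30.1 to 44.7) were from Hoxa7, 27.8% (21.4 to 34.9) from Hoxa9, 13.3% (8.73 to 19.2) from Hoxa10 and 11.1% (6.92 to 16.6) from Hoxa5. Each of these intervals overlapped with that of the differentiating cells. The 47 UMIs outside the lineage were too few to show a different make-up for most members, with Hoxa7 at 38.3% (24.5 to 53.6) and Hoxa9 at 19.1% (9.15 to 33.3). In the Syt4 cluster, Hoxa7 took 40.4% (33.8 to 47.2) of 218 UMIs and Hoxa9 19.7% (14.7 to 25.6), and this pooled Hoxa9 share lay below the interval of the differentiating cells. Of these UMIs 175 came from mouse 3. By mouse the Hoxa9 UMIs were 5 of 33, 0 of 10 and 38 of 175, and in each mouse the interval of this share overlapped with that of its differentiating cells (5.11 to 31.9 against 17.9 to 28.9 in mouse 1, and 15.8 to 28.6 against 28.0 to 37.9 in mouse 3). Among mice, the Hoxa9 share of differentiating cells was 23.0%, 31.1% and 32.8%, and the Hoxa2 share was 8.64%, 5% and 2.73%.

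CGNP/CGN-like cells were compared with cells outside the Atoh1 lineage, in which Cre should not be expressed. These groups differ in cell type as well as in Eed deletion, and without WT cells the effects of these cannot be told apart. UMIs were summed per mouse and cell group and tested with edgeR's quasi-likelihood test over 7254 genes, with Benjamini-Hochberg adjustment. Of the 9 members, 4 passed the filter on low counts, Hoxa5, Hoxa7, Hoxa9 and Hoxa10. All 4 were higher in CGNP/CGN-like cells, where 7.51% of all genes tested were called higher and 11.2% lower. A member passing the filter through its level in 1 group was bound to differ, so this count carries no weight beyond the genes' own values.

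Hoxa7 was at 198, 228 and 218 CPM in CGNP/CGN-like cells and at 7.33, 30.4 and 24.3 outside the lineage. Its log2 fold change was 3.40 (SE 0.33, edgeR adjusted p = 5.4e-07). Hoxa9, a gene required for normal blood progenitors and overexpressed in leukaemias, was at 144, 182 and 237 against 11, 15.2 and 8.10, with a log2 fold change of 4.17 (SE 0.38, edgeR adjusted p = 2.1e-07). In both genes the groups were far apart in every mouse, and Hoxa9 varied more than Hoxa7 between mice on the CGNP/CGN-like side. Hoxa5 was at 73.7, 82.5 and 105 against 0, 7.61 and 4.05 (log2 fold change 4.58, SE 0.54, edgeR adjusted p = 5.2e-06). Only 3 UMIs lay behind the second set of values, and the ratio of the pooled levels was 26.3 (8.80 to 129, counting error only). Hoxa10, which patterns the uterus and the lumbar spine, was at 53.9, 74.0 and 99.4 against 11, 7.61 and 2.03 (log2 fold change 3.67, SE 0.54, edgeR adjusted p = 5.6e-05). Its log2 fold change was 4.62 without mouse 1 and 2.60 without mouse 3.

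The other 5 members were too low for the filter. Without that filter, Hoxa2 (47 UMIs against 2) and Hoxa6 (31 against 1) were also called higher by edgeR, with adjusted p = 4.2e-05 and 0.0010, in a setting where 5.29% of 16079 genes were called higher. The ratios of pooled levels were 14.2 (3.71 to 120) for Hoxa2 and 18.7 (3.11 to 761) for Hoxa6. Hoxa3 (25 against 5), Hoxa11 (17 against 4) and Hoxa4 (5 against 0) were not called. For Hoxa11, 3 of the 4 UMIs outside the lineage came from 1 cell of mouse 2.

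Differentiating cells were then compared with proliferating cells, since the granule neuron lineage passes from one state to the other in the first postnatal weeks. Among 4888 genes tested, the same 4 members passed the filter, and all 4 were higher in differentiating cells. Of all genes tested, 14.6% were called higher and 14.1% lower in these cells. Here too a gene that passed the filter through its level in differentiating cells was bound to differ, and in proliferating cells Hoxa5 had 6, 7 and 7 UMIs and Hoxa10 5, 10 and 9 in mice 1, 2 and 3. The difference was seen in all 3 mice for each of the 4 genes, and no level in differentiating cells overlapped with one in proliferating cells.

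Hoxa7 was at 451, 422 and 451 CPM in differentiating cells and at 67.9, 116 and 47.4 in proliferating cells. The log2 fold change was 2.57 (SE 0.27, edgeR adjusted p = 1.1e-06). For Hoxa9 the levels were 297, 437 and 488 against 65.2, 35.8 and 53.4, a log2 fold change of 2.94 (SE 0.28, edgeR adjusted p = 3.2e-07). Mouse 1 was lowest for Hoxa9 in differentiating cells and highest in proliferating cells. Hoxa5 was at 186, 172 and 219 against 16.3, 31.3 and 20.8 (log2 fold change 3.14, SE 0.32, edgeR adjusted p = 8.6e-07). Hoxa10 was at 133, 125 and 199 against 13.6, 44.8 and 26.7 (log2 fold change 2.55, SE 0.38, edgeR adjusted p = 5.2e-05). The genes' fold changes lay between 2.55 and 3.14 on the log2 scale, and differences among them were not tested. The Eed transcript itself was at 10.1 ± 5.79 CPM in differentiating and 29.9 ± 14.5 in proliferating cells, from 5 and 30 UMIs, and its part in the difference was not tested.

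**Figure D3:**
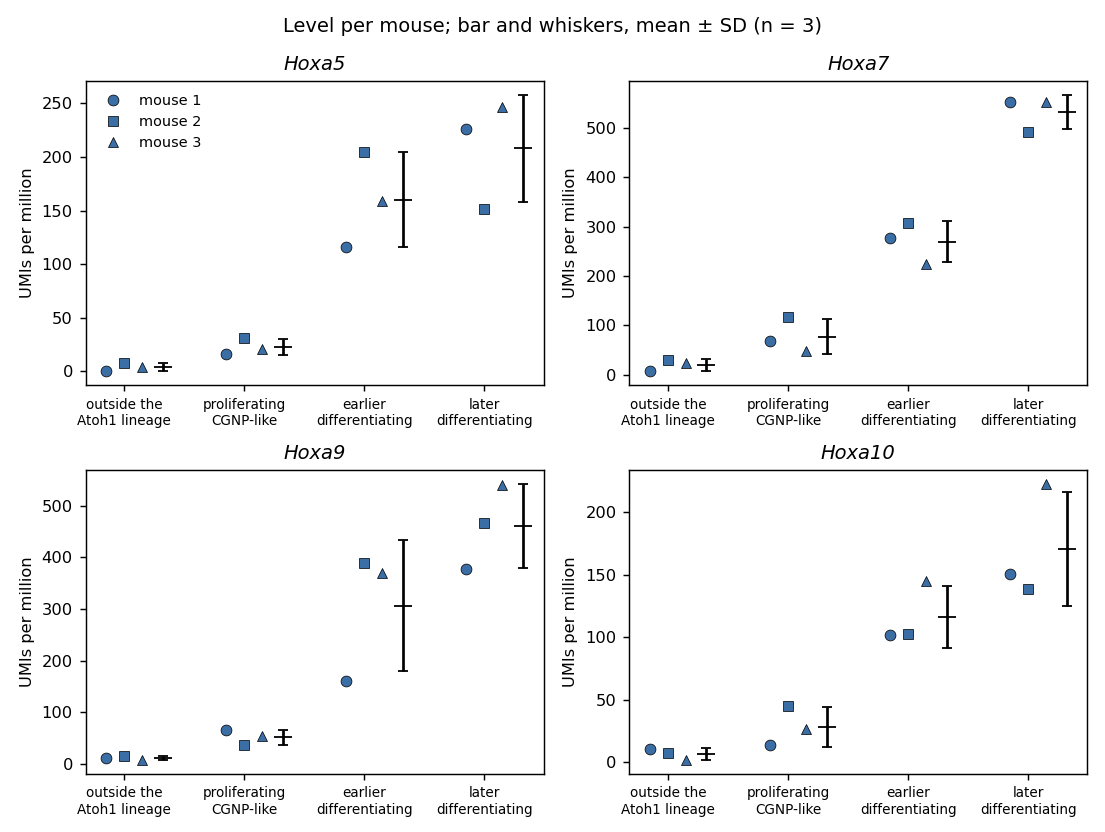
Levels of Hoxa5, Hoxa7, Hoxa9 and Hoxa10 (CPM, linear axes that differ between panels) in cells outside the Atoh1 lineage, proliferating CGNP-like cells, and the earlier and later differentiating clusters. Each symbol is 1 mouse, and the bar and whiskers beside them are the mean ± SD of 3 mice. In each panel every differentiating value lies above every proliferating value, with Hoxa7 at 224 or more in both differentiating clusters against 116 or less in proliferating cells.

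Without the filter on low counts, Hoxa2 (40 UMIs against 7), Hoxa3 (22 against 3), Hoxa6 (27 against 4) and Hoxa11 (15 against 2) were called higher in differentiating cells as well, where 5.03% of 15357 genes were. Pooled levels differed by ratios of 9.43 (4.18 to 25.0), 12.1 (3.64 to 63.2), 11.1 (3.88 to 43.8) and 12.4 (2.88 to 112), against 6.16 (4.69 to 8.19) for Hoxa7. Hoxa4 had 2 UMIs against 3, and mouse 2 had none in any cell. Among the members numbered below Hoxa5, only Hoxa2 had over 30 UMIs in differentiating cells, at 112, 70.3 and 40.6 CPM. In the earlier differentiating cluster it was at 116 and 82.0 in mice 1 and 2 and had no UMI in the 50 cells of mouse 3.

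Within the differentiating cells, the later cluster was set against the earlier one. Of 1821 genes tested, 7.08% were called higher and 5.77% lower in the later cluster. Hoxa7 was among the former, at 552, 492 and 552 CPM against 276, 307 and 224, a log2 fold change of 1.06 (SE 0.27, edgeR adjusted p = 0.012). Leaving out any 1 of the 3 mice ended this call, with edgeR adjusted p from 0.0587 to 0.117, although the log2 fold change stayed between 0.91 and 1.18. Thinning each cell to 500 UMIs ended it too (log2 fold change 0.90, edgeR adjusted p = 0.11). With finer clustering Hoxa7 was not called either (log2 fold change 0.60, edgeR adjusted p = 0.53). There the later and earlier groups held 127 and 385 cells in place of 344 and 178, so that was not the same contrast.

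Hoxa9 was at 377, 467 and 540 against 160, 389 and 370 and did not pass the test (log2 fold change 0.67, SE 0.30, edgeR adjusted p = 0.17). Mouse 1 was lowest in both clusters and lay far from the other mice in the earlier one. Hoxa5 (226, 151 and 246 against 116, 205 and 158) and Hoxa10 (151, 139 and 223 against 102, 102 and 145) did not pass either. Their log2 fold changes were 0.51 (SE 0.35, adjusted p = 0.42) and 0.62 (SE 0.39, adjusted p = 0.36), so the data neither show a difference nor show that the levels were alike. Whether Hoxa7 differed more than its neighbours was not tested.

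**Figure D4:**
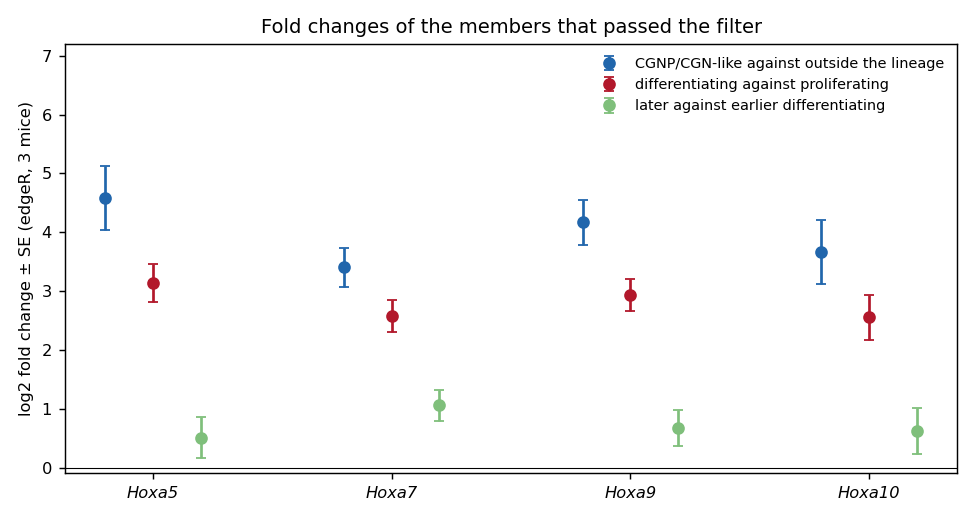
Log2 fold changes (± SE, edgeR, 3 mice) of the 4 members that passed the filter on low counts, in 3 comparisons. Blue and red points lie between 2.55 and 4.58. The green points of the later against the earlier differentiating cluster lie between 0.51 and 1.06, and of these Hoxa7 passed the test.

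In myoid-like cells, a muscle-like population of 82 cells, HoxA levels were low. The study infers that its myoid cells belong to the Atoh1 lineage. It lists them among the cells expressing Hoxa7, Hoxa9 and the cell cycle inhibitor gene Cdkn2a. Here Cdkn2a stood at 81.4 ± 34.2 CPM in the myoid-like cells and 10.2 ± 4.35 outside the lineage, from 14 and 8 UMIs. The defining myogenic markers led this cluster, among them Myog, Actc1 and Mylpf. The summed level was 98.4, 77.8 and 106 CPM, from 15 UMIs, against 44.0, 83.7 and 48.6 outside the lineage, and the ratio of pooled levels was 1.89 (0.982 to 3.44). The groups overlapped, because mouse 2 was higher outside the lineage. No member passed the filter in this comparison, in which 10.9% of 2567 genes were called higher and 15.4% lower. Without the filter none of the 9 was called by edgeR, with Hoxa7 (8 UMIs) at a log2 fold change of 1.18 (SE 0.80, adjusted p = 0.47) and Hoxa9 (4 UMIs) at 1.03 (SE 1.11, adjusted p = 0.68). No UMI of Hoxa2, Hoxa3, Hoxa5, Hoxa6 or Hoxa11 was counted in the 82 cells, which allows a share of cells with a UMI of each gene of up to 3.66% and sets no limit on the cells expressing it. The HoxD genes gave more UMIs there than the HoxA genes, 35 from 16 cells with 12 of them in 1 cell, at 123, 117 and 317 CPM, against 66.1 ± 16.7 in differentiating cells.

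The unnamed clusters differed in their HoxA content. The cluster of 190 cells held 15 HoxA UMIs, with none in the 22 cells of mouse 2. The Syt4 cluster held 218 in 177 cells and was positive in 40.5%, 45.5% and 51.6% of cells. This cluster carried 8 markers of differentiating CGNP/CGNs and 3 of Purkinje cells, the large output neurons of the cerebellar cortex, which lie outside the Atoh1 lineage. Purkinje markers led its top 10 genes by fold, so it stayed unnamed. Without upper limits on UMIs and genes, a cluster of 174 cells with Syt4 among its top genes was named Purkinje (5 markers against 4). In the Syt4 cluster, cells with a HoxA UMI held Purkinje markers at a summed 155, 148 and 524 CPM in mice 1, 2 and 3, and those without one at 2750, 701 and 5487. Calb1 had 7 UMIs in the 86 positive cells and 135 in the 91 negative cells, although the positive cells were deeper (medians of 1568.5 and 1277 UMIs). Slc17a6, a glutamate transporter gene, had 7, 0 and 55 UMIs in the positive cells of mice 1, 2 and 3 and 8, 2 and 28 in the negative cells. The cells were split by a HoxA UMI here, so this is a description of how 2 measures lay together.

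HoxA genes were often found together in a cell. In the later differentiating cluster, 141 of 344 cells had no HoxA UMI, 81 had UMIs of 1 member, 61 of 2 and 61 of 3 or more, with a maximum of 5 members and 10 UMIs. In the earlier cluster 20 of 178 cells had 2 members and 13 had 3 or more. Among 650 proliferating cells, 21 had 2 members and 6 had 3 or more. Outside the lineage, 1 cell of 752 had 2 members and 1 had 3. Positive cells were deeper, with medians of 1042 and 739 UMIs for later differentiating cells with and without a HoxA UMI.

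**Figure D5:**
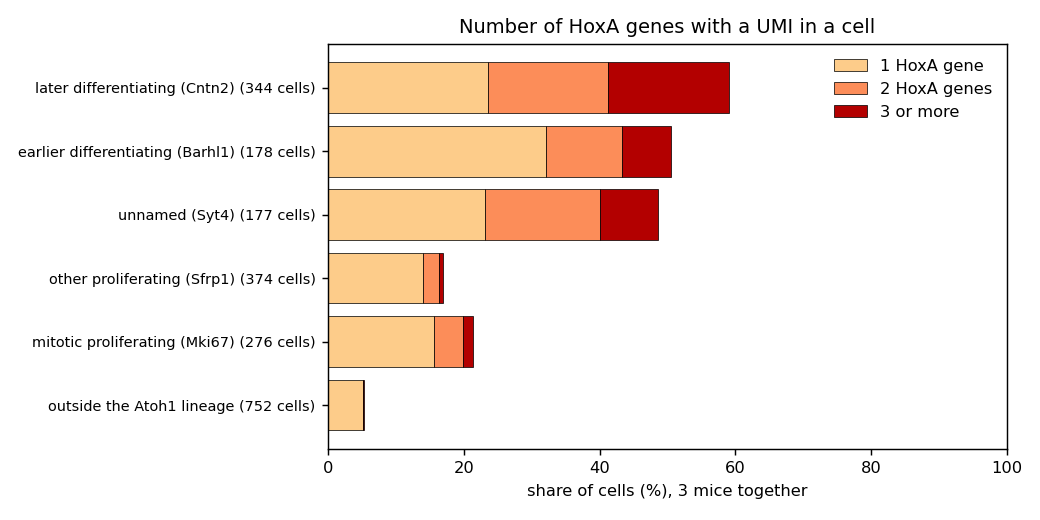
Share of cells (%, 3 mice together) with UMIs of 1, 2, or 3 or more HoxA genes, by cell group. In the later differentiating cluster 59.0% of cells were positive and 35.5% had 2 or more genes, against 5.32% and 0.266% outside the Atoh1 lineage.

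Depth bears on such counts. In the later differentiating cluster, Hoxa9 was detected in 50% of the 126 cells with Hoxa7 and in 18.8% of the 218 without it, but the former had a median of 1146 UMIs and the latter 779.5. With every cell thinned to 500 UMIs the shares were 24.3% of 70 cells and 18.2% of 274. Hoxa10 was detected in 23.8% of the cells with Hoxa7 and 8.72% of those without, and in 11.4% and 6.20% after thinning. The gap between the shares thus shrank at equal depth for both pairs, and it turned in 1 mouse for each. In mouse 3, Hoxa9 was in 18.5% of cells with Hoxa7 and 22.9% of those without. In mouse 2, Hoxa10 was in 0 of 17 cells with Hoxa7 and 6.41% of 78 without. Summed over clusters of Hox genes, 45% of the 160 later differentiating cells with a HoxA UMI after thinning also had a HoxB UMI, against 28.3% of the 184 without. For HoxC the shares were 25.6% and 21.7%, with the order turned in mouse 2 (20.9% and 23.1%), and for HoxD 2.5% and 2.72%.

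Cdkn2a, a cell cycle inhibitor gene and a known PRC2 target, had another distribution over the lineage than the HoxA genes. It was at 163 ± 9.93 CPM in differentiating and 268 ± 43.6 in proliferating cells, with a log2 fold change of -0.68 (edgeR adjusted p = 0.029). In the later against the earlier differentiating cluster its log2 fold change was -1.81 (SE 0.35, edgeR adjusted p = 0.0014), where that of Hoxa7 was 1.06. Both genes were higher in CGNP/CGN-like cells than outside the lineage, Cdkn2a by 4.62 on the log2 scale. In proliferating cells, Cdkn2a was detected in 44.3% of the 122 cells with a HoxA UMI and 19.7% of the 528 without, at medians of 1542.5 and 1087 UMIs, and in 20.4% of 54 and 11.4% of 596 after thinning. In mouse 1 there was little gap after thinning (11.5% and 11.2%). In differentiating cells the thinned shares were 7.69% and 6.98%, and in mouse 3 the order turned (1.28% and 14.7%).

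Several HoxB genes and Hoxc9 were called in the same direction as the HoxA genes, while no HoxD gene passed the filter. Of 21 HoxB, HoxC and HoxD genes in the tables, 4 passed the filter and were called higher in the lineage than outside it, where 7.51% of all genes were, among them Hoxb5 (log2 fold change 4.36) and Hoxb8 (4.34). Between differentiating and proliferating cells, 5 were tested and called higher, against 14.6% of all genes, with Hoxb5 at 3.83, Hoxb7 at 2.74 and Hoxc9 at 2.47. In the later against the earlier cluster, Hoxb5 (2.10), Hoxc9 (1.66) and Hoxb7 (1.35) were called higher and Hoxb8 was not (0.18, adjusted p = 0.82). The 4 genes of the first comparison had 2 to 6 UMIs outside the lineage and passed the filter through their level inside it, so these counts carry no weight beyond the genes' own values. The HoxD sum was at 48.9 ± 10.5 CPM in the later and 100 ± 39.5 in the earlier differentiating cluster.

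In each of the main comparisons, 1 of the genes around the cluster was called. Of 15 non-coding and flanking genes listed, 7 were in the tables and 5 passed the filter in both main comparisons. Skap2, a coding gene beyond the head end of the cluster, was higher in CGNP/CGN-like cells (85.3 ± 32.8 against 34.2 ± 12.9 CPM, log2 fold change 1.45, edgeR adjusted p = 0.013), as were 7.51% of all genes tested. Between differentiating and proliferating cells it did not pass (0.85, adjusted p = 0.084), while Cbx3, a heterochromatin protein gene, was lower (-0.95), as were 14.1% of all genes tested. With mice as blocks, Cbx3 was called higher in CGNP/CGN-like cells (0.40, adjusted p = 0.0093), where 12.9% of all genes tested were. In the same fit, 3 of the 5 genes were called higher in differentiating cells, Skap2 (adjusted p = 0.011), Snx10 and Tax1bp1, where 19.9% of all genes tested were called higher. The medians of this list were 0.01 and 0.42, against 0.02 and -0.01 over all genes tested. Hoxa11os, the antisense partner of Hoxa11, had 15 UMIs in CGNP/CGN-like cells and none outside the lineage. If the counting did not use strand, its reads and those of Hoxa11 cannot be told apart where they overlap.

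Among cofactors of HOX proteins (9 genes), 6 were tested between CGNP/CGN-like cells and cells outside the lineage and 1 was called, Meis1, which was higher (log2 fold change 0.92, edgeR adjusted p = 0.030), as 7.51% of all genes were. With mice as blocks Pknox1 was called higher too (0.94, adjusted p = 0.028). Meis1 was also the 1 of 3 tested that was higher in differentiating than in proliferating cells (0.99, adjusted p = 0.016). The list's medians were 0.11 and 0.57. Of 12 PRC2 genes, 9 were tested in the first comparison, with Ezh2, the catalytic subunit, higher (0.93) and Eed lower, against 7.51% of all genes higher and 11.2% lower. In the second comparison 6 were tested, with Rbbp7 (-1.48), Suz12 (-1.09) and Ezh2 (-0.79) lower and Jarid2 (1.03) higher in differentiating cells, against 14.1% of all genes lower and 14.6% higher. The list's medians were 0.34 and -0.49. With mice as blocks, 4 PRC2 genes were called higher in the first comparison, Suz12, Rbbp4 and Rbbp7 besides Ezh2, where 12.9% of all genes tested were. Of 19 PRC1 genes, 14 and 7 were tested, and Bmi1 was called in the first comparison (1.06, median of the list 0.08) and none in the second (median 0.24).

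Trithorax genes and H3K27 demethylases, which oppose the Polycomb complexes, were all in the tables (12 genes). Dpy30 was higher in CGNP/CGN-like cells (0.70) and lower in differentiating cells (-0.61), where Kdm6b, an H3K27 demethylase gene, and Kmt2c were higher (0.91 and 0.83). Of the list, 12 and 10 were tested, with medians of 0.15 and 0.18. Of all genes tested, 7.51% were called higher in the first comparison, and 14.6% higher and 14.1% lower in the second. With mice as blocks, Psip1 was also called higher in CGNP/CGN-like cells (0.39, adjusted p = 0.0069) and lower in differentiating cells (-0.34, adjusted p = 0.015), where Kmt2a was higher (0.57, adjusted p = 0.0064). In these fits 12.9% of all genes tested were higher in CGNP/CGN-like cells, and in differentiating cells 19.9% were higher and 19.9% lower. Retinoic acid activates Hox genes in the embryo. Of 16 genes of its signalling, 4 were tested in the first comparison. In CGNP/CGN-like cells 3 were lower, among them Cyp26b1 (-4.18) and Dhrs3 (-3.30), and Crabp1 was higher (1.90), with a median of -3.18, against 11.2% of all genes lower and 7.51% higher. Crabp1, which binds retinoic acid in the cytoplasm, was the 1 gene tested in the second comparison and was higher in differentiating cells (407 ± 26.7 against 76.7 ± 17.8 CPM, log2 fold change 2.42, edgeR adjusted p = 5.7e-07).

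In the myoid comparison 14 genes of these lists, with the Hox genes of the other clusters and Cdkn2a, were tested, and Psip1 and Kmt2a were called, both lower, as were 15.4% of all genes tested. In the later against the earlier cluster none of the 15 genes tested from the flanking, cofactor, PRC2, PRC1, trithorax and retinoic acid lists was called by edgeR, and Psip1 was called with mice as blocks (log2 fold change 0.64, adjusted p = 0.016), where 10.3% of genes were called higher.

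Across the 14 clusters, the 8 genes whose mean level ran most like the HoxA sum, of 8497 with at least 50 UMIs, were Hoxb7 (Pearson r = 0.934), Barhl2 (0.922), Scg2 (0.915), Hoxb5 (0.906), Slc17a6 (0.898), Cacna2d1 (0.897), Cntn2 (0.894) and Hoxb8 (0.892). These are correlations of log2 levels over clusters that share libraries and neighbouring cell states, and 3 of the genes are Hox genes themselves. Barhl2 encodes a transcription factor of granule neurons. Its level was 149 CPM in the later cluster, 88.1 in the earlier and 68.8 in the Sfrp1 proliferating cluster, a smaller span than that of Hoxb7 (270, 106 and 33.8). Cntn2, which marks granule neurons starting to differentiate, was at 554, 255 and 38.8.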

How the data were processed

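Drop-seq UMI counts per gene and cell were deposited by the authors as 1 table per mouse, with reads aligned by STAR to mm10 per the labels. The counts were used as deposited, and each of the 3 mice was 1 replicate. Barcodes with fewer than 500 UMIs, fewer than 200 genes or over 10% mitochondrial UMIs were left out, as were those more than 4 SD above the median in UMIs or genes, which was the only step against doublets. Of 3481 barcodes, 2373 remained. Cells were normalised with sctransform 0.4.2 and clustered in Seurat 5.3.0 (R 4.3.3, 15 principal components, Louvain resolution 0.8), leaving out 106 genes, namely all Hox genes and the genes of the lists. A cluster was called X-like where at least 3 markers of 1 cell type led it, and stayed unnamed otherwise.

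UMIs were summed per mouse and cell group and tested with edgeR 4.0.16 (quasi-likelihood test, TMM, filterByExpr, adjusted p under 0.05 over all genes tested). The study's comparison with WT mice was not analysed here. Levels are CPM, with intervals from the exact Clopper-Pearson method at 95%, and a count of 0 allows up to 3 counts. PCR errors in UMIs are not covered. The scripts were tested on simulated data. Alternatives were DESeq2 1.42.0, total UMI counts without TMM, no filter on low counts, mice as blocks, a minimum of 1000 UMIs, no upper limits, resolutions 0.4 and 1.2, Hox and list genes kept in the clustering, thinning to 500 UMIs, non-neural reference cells and leaving out each mouse.

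Sums of the same mouse come from the same animal. Their deviations from group means correlated at r = 0.184, 0.126 and 0.286 (mice 1, 2 and 3) for CGNP/CGN-like cells and cells outside the lineage, and at 0.209, 0.157 and 0.285 for differentiating and proliferating cells. The correlations were 0.108, 0.0749 and 0.198 for the myoid comparison and 0.184, 0.168 and 0.363 for the later and earlier clusters.

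Named genes were all rows with a HoxA symbol, the 2 or 3 largest called members of each list, and the 8 genes with the highest Pearson r with the HoxA sum over clusters, on log2 of the mean CPM plus 10. Scg2, Cacna2d1 and the other genes of that last group had at least 50 UMIs. Snx10, Tax1bp1, Cbx3, Pknox1, Rbbp4, Rbbp7, Suz12, Kmt2a and Psip1 are also named where the blocked fit changed their call, chosen after their values were seen. The members and lists were chosen with earlier results of these data known. Use of strand in counting is not given in the sources used here.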

Additional observations from a re-analysis of the deposited data

Results flagged for a closer look

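HoxA transcripts were also counted in barcodes that were left out of the main comparisons. Those above the upper limits were kept only in the alternative without these limits. The 1056 barcodes with fewer than 500 UMIs held 130 HoxA UMIs, a level of 343 CPM (326, 363 and 348 in mice 1, 2 and 3). That lay above the 7.92 that a count of 0 would allow and above the 52.3 of cells outside the lineage. It lay below the 410 of all cells that passed the filters (366, 479 and 415 in mice 1, 2 and 3). The 35 barcodes above the upper limits on UMIs and genes held 20 HoxA UMIs, or 90.5 CPM, against 13.6 for a count of 0 and 410 in cells that passed. In the 17 barcodes with over 10% mitochondrial UMIs no HoxA UMI was counted, which allows up to 246 CPM.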

How the results depend on the processing

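The calls of Hoxa5, Hoxa7, Hoxa9 and Hoxa10 between CGNP/CGN-like cells and cells outside the lineage, and between differentiating and proliferating cells, kept their direction and passed the test under each alternative that gave them a value (14 or 15, and 11 or 12, per gene). Since the filter on low counts favours genes high in 1 group, this is no measure of stability. Sizes of the changes moved. In the first comparison the log2 fold changes ran from 3.57 to 7.87 for Hoxa5 and from 2.37 to 3.75 for Hoxa7. They ran from 3.35 to 5.90 for Hoxa9 and from 2.60 to 5.41 for Hoxa10. In the second the ranges were 2.74 to 3.43, 2.31 to 2.95, 2.73 to 3.32 and 2.26 to 3.05 in the same order of genes. At resolution 0.4 in the first comparison, and with cells thinned to 500 UMIs in the second, 3 members were called and Hoxa10 had no value. Without the filter on low counts, 6 members instead of 4 were called in the first comparison and 8 members instead of 4 were called between differentiating and proliferating cells. In the latter, 5 were called with no upper limit on UMIs and genes, 6 with the Hox genes kept in the clustering and 5 to 6 without 1 mouse, and in the former 5 without mouse 2. Between the later and earlier differentiating clusters the 1 call fell to 0 with cells thinned to 500 UMIs and without each of the 3 mice (0 to 0). It was also 0 at resolution 1.2, where the groups held other cells. The share of CGNP/CGN-like cells with a HoxA UMI was 36.3% and became 26.1% at resolution 0.4, which left the differentiating cells without a named cluster, and 23.9% after thinning. It lay between 32.6% and 39.6% without 1 mouse. In the myoid comparison 0 members were called under each alternative. With mice as replicate blocks the counts of members called were 4, 4, 0 and 1, as without, so the pairing changed no call of a HoxA gene. At resolution 0.4 there was no value for the comparisons of differentiating cells, and with a minimum of 1000 UMIs none for the later against the earlier cluster. Adding the unnamed cluster of 190 cells to the cells outside the lineage, chosen after seeing the data, changed no call. The causes of these changes were not tested. Members with few UMIs, Hoxa4 above all, could not be compared at this depth.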
